A study of Homo sapiens with 16 samples.

Results

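The genes described here are the cell division and mitosis genes that the MDA231 table of enriched Gene Ontology terms named. They were taken as every gene in the terms cell division, mitotic nuclear division or cell cycle, less the genes also in cellular response to DNA damage stimulus, DNA repair or DNA replication. KRT18, a keratin, was dropped as well. The 3 terms held 186 genes together, 31 were removed for the DNA terms, and 154 remained, of 2646 genes named in the MDA231 table and 2676 named in the whole series. The members were chosen by a measured outcome, the enrichment fold and p-value that put these terms in the deposited MDA231 table, so those values are a description only.

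The study profiled brain metastases of breast cancer lines by Flura-seq, in which cells able to convert 5-fluorocytosine label their new RNA and the labelled RNA is recovered with an antibody. Brain-metastatic derivatives of MDA231, a triple-negative line, and of HCC1954, an ERBB2-positive line, were grown in mouse brain for 30 days, and 5-fluorocytosine was injected at 250 mg/kg, with a labelling time of 12 hours before harvest. The 16 libraries comprised 4 immunoprecipitated (IP) and 4 input libraries of MDA231 and 4 IP and 4 input libraries of HCC1954. Both lines were xenografts of human cells in a mouse host, and the labels name no mouse strain and do not say whether a library came from 1 brain. The deposited values are 1 table of enriched terms per line. No value per library was analysed, so library depth and replicate spread are unknown here, and whether a listed gene was higher or lower in IP than in input RNA is stated in none of the sources used here. The MDA231 list covered 3626 of 16792 background genes (21.6%), and 2646 background genes (15.8%) were named in a listed term.

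Cell division is driven by cyclin-dependent kinases and their cyclins, which commit a cell to replication and then to mitosis. In mitosis, microtubules of the spindle attach to chromosomes at the kinetochore, a layered protein assembly on the centromere, while the spindle assembly checkpoint holds back the anaphase-promoting complex (APC/C) until every kinetochore is attached. Once the APC/C has tagged securin and cyclin B for destruction, sister chromatids part, and cytokinesis and abscission by the ESCRT machinery separate the daughter cells. Proliferation is a property of tumour cells growing in brain, whereas most neurons of the host no longer divide. Proliferation was not measured here, and its relation to the listed terms was not tested.

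Both genes proposed as markers were members. PLK1, polo-like kinase 1, which drives mitotic entry, spindle assembly and cytokinesis, was a member through mitotic nuclear division alone. CDK5, an atypical cyclin-dependent kinase best known in neurons, was a member through cell division and cell cycle. The label thus held for PLK1 by its known role, while CDK5 carried the annotation without mitotic nuclear division. Of the 154 members, 67 were in mitotic nuclear division, 99 in cell division and 62 in cell cycle. The 44 members in cell cycle alone included genes best known for other processes, such as MRPL41, a mitochondrial ribosomal protein, STEAP3, a metalloreductase, and TET2, a DNA demethylase.

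Promoter sequences of 4 members are shown because they carry letters tied to mitotic transcription: the cell cycle genes homology region (CHR), TTTGAA, and the CCAAT box bound by NF-Y. LIN54, a subunit of the MuvB complex that is known to bind the CHR, was itself a member together with LIN9 and LIN52. The windows come from RefSeq (GRCh38.p14) and span 250 bases before to 50 bases after the start, written 5′ to 3′ on the gene's strand. Capitals mark TTTGAA and CCAAT on either strand. The windows lie at chr16:23678639-23678938 (plus strand) for PLK1, chr16:2429197-2429496 (plus) for CCNF, chr2:168890381-168890680 (minus) for SPC25 and chr11:46846231-46846530 (minus) for CKAP5.
PLK1: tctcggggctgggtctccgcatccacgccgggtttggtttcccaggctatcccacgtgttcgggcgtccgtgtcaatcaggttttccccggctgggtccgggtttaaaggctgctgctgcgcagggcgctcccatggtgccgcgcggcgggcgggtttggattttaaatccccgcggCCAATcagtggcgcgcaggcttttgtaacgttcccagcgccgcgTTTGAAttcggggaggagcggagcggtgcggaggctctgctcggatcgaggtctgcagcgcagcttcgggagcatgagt
CCNF: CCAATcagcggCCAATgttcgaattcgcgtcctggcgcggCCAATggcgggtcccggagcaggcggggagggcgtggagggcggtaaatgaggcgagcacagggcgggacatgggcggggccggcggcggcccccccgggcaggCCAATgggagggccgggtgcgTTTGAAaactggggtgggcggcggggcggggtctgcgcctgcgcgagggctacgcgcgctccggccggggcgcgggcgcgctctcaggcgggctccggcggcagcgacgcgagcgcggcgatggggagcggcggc
SPC25: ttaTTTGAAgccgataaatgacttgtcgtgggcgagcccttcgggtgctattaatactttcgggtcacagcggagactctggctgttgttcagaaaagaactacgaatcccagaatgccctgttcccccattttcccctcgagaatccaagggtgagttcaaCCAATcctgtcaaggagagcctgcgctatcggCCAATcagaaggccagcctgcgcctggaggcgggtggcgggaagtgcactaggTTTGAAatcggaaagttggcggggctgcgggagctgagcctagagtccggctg
CKAP5: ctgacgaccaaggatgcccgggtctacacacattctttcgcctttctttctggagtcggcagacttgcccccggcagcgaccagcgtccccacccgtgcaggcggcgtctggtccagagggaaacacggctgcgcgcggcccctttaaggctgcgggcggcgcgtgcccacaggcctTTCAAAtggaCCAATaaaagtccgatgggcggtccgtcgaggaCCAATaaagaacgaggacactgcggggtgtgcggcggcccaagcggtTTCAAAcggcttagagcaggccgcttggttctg

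Counted with the start base as 0, the PLK1 window held CCAAT at -73 and TTTGAA at -29. The CCNF window, of the cyclin F gene, held 4 CCAAT boxes, the nearest at -106, and TTTGAA at -85. SPC25, a subunit of the NDC80 complex, had CCAAT at -88 and -56 and TTTGAA at -247 and -3. CKAP5, a microtubule polymerase, had CCAAT at -63 and -30 and the reverse strand of TTTGAA at -73 and 17. In PLK1 and CCNF every CCAAT lay upstream of the TTTGAA. These are matches of letters in a window, and no binding was measured.

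Over the members, TTTGAA and CCAAT were found at shares near those of other promoters. RefSeq windows matched 138 of the 154 members, many with several starts, giving 215 windows. TTTGAA on either strand was in 33 of 215 member windows (15.3%), against 2758 of 22199 windows of protein-coding genes (12.4%). CCAAT was in 77 member windows (35.8%), against 34.7% of all protein-coding windows. The E2F words TTTCCCGC, TTTCGCGC, TTTGCCGC and TTTGGCGC, searched on both strands, contain neither other motif. They were in 12 member windows (5.58%), against 4.10%. In windows of members of mitotic nuclear division the shares were 17.6% for TTTGAA, 41.9% for CCAAT and 8.11% for the E2F words, over 74 windows. For members in cell cycle alone they were 13.9%, 30.6% and 5.56% over 72 windows. TTTGAA and CCAAT stood together in windows of 13 member genes, among them BORA, a cofactor of Aurora A, NCAPD2, a condensin subunit, and PPP2R2D, a regulatory subunit of the phosphatase PP2A. They stood together in 14 of 215 member windows (6.51%), against 1103 of 22199 protein-coding windows (4.97%). GMNN, the replication licensing inhibitor geminin, had an E2F word at -80. MIS12, of the kinetochore, had E2F words at -109 and -100 in separate windows, each counted from its own start.

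The members fell into 5 combinations of terms. Cell division with mitotic nuclear division named 56 members, cell cycle alone 44, cell division alone 25, cell division with cell cycle 18 and mitotic nuclear division alone 11. No member was in all 3 terms. Before the DNA genes were removed, mitotic nuclear division and cell cycle shared 1 gene, TIPIN, a replication fork protein. Cell division and mitotic nuclear division shared 69 genes, 58.5% of the first and 85.2% of the second, whereas cell division and cell cycle shared 20, or 16.9% and 26.3%. Among the members, the mitotic set and the cell cycle set met only through cell division, each sharing genes with it. In the Gene Ontology, mitotic nuclear division is a process within the cell cycle. In the authors' deposited table, however, cell cycle had 217 background genes and mitotic nuclear division 248. The cell cycle term as deposited therefore did not hold all genes of mitotic nuclear division. These overlaps describe how genes were assigned to terms.

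**Figure D1:**
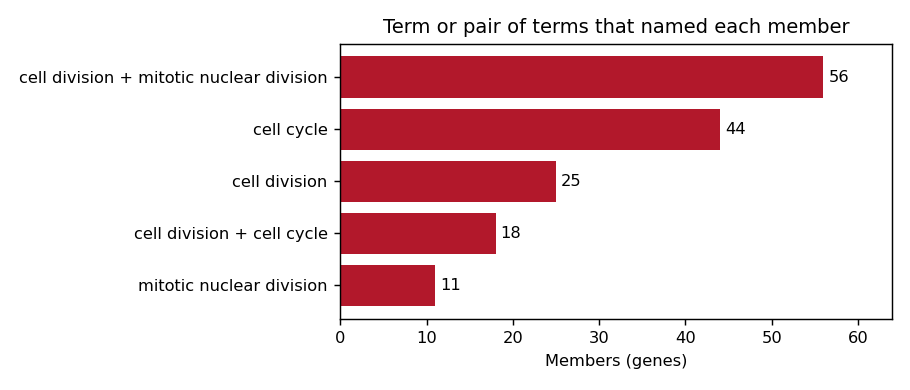
Number of the 154 members named by each of the 3 terms alone or by a pair of them (horizontal axis, genes). Cell division with mitotic nuclear division is the longest bar at 56 members, and mitotic nuclear division with cell cycle has no bar because no member was in both.

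The 3 terms ranked 4, 10 and 11 by p among the 314 listed MDA231 terms, of which 15 (4.78%) had a Benjamini adjusted p under 0.05 in the authors' deposited table. Cell division left 232 of its 350 background genes off the MDA231 list, cell cycle 141 of 217 and mitotic nuclear division 167 of 248, in the authors' deposited table. Listed shares were thus 33.7%, 35.0% and 32.7% of each term, beside 21.6% of the background. A further 13 listed terms had names of mitosis or the cell cycle. Their folds ranged from 1.39 to 3.71 in the authors' deposited table. That table lists only terms with an unadjusted p under 0.1, and its lowest fold is 1.06, so a fold above 1 was set by the listing. An unadjusted p under 0.05 was held by 9 of the 13, beside 214 of all 314 listed terms (68.2%), and an adjusted p under 0.05 by 0 in the authors' deposited table.

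The listed terms on chromosome movement differed in how many of their genes were members. Sister chromatid cohesion listed 34 of 103 background genes in the authors' deposited table, a fold of 1.53 with an exact 95% binomial interval of 1.06 to 2.13 and a deposited adjusted p of 0.570. Of the 34, 20 were members. Chromosome segregation had, in the authors' deposited table, an enrichment of 1.63-fold, with 24 of 68 genes listed (interval 1.05 to 2.43, deposited adjusted p = 0.628) and 14 members. Kinetochore assembly had 2.32-fold enrichment by the authors' deposited table, with 6 of 12 genes listed (interval 0.850 to 5.04, deposited adjusted p = 0.965), and 4 were members, CENPT, CENPW, MIS12 and POGZ. Chromosome separation held 1 member, NCAPD2, among 4 listed genes. In terms on cycle phases the members were 16 of the 41 listed genes of G2/M transition of mitotic cell cycle, 5 of 34 of G1/S transition and 0 of 4 of cell cycle phase transition. These intervals cover the draw of genes only, and the terms share genes with those that chose the members.

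**Figure D2:**
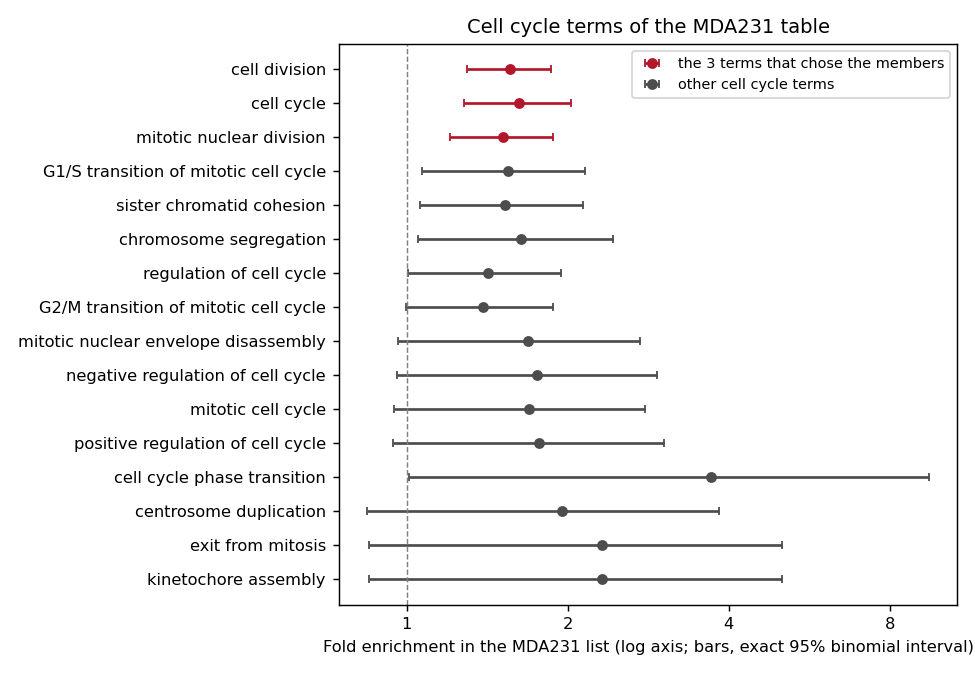
Fold enrichment (horizontal log axis) of the 3 terms that chose the members, above, and of the 13 other cell cycle terms of the authors' deposited MDA231 table, below, with exact 95% binomial intervals computed here. The folds of the 3 terms lie between 1.51 and 1.62, and the widest intervals belong to the smallest terms, such as exit from mitosis with 6 listed genes.

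Full subunit lists of mitotic complexes were then looked up to see which parts of each machine were named. The 24 lists, written from textbook knowledge, held 352 distinct genes, of which 351 matched an identifier. Of the 352, 108 (30.7%) were named in a listed MDA231 term, beside 15.8% of all background genes, and 61 were members. These lists hold well-studied genes with many annotations, so a larger named share is not read as a result. A gene annotated to no listed term is not printed and may still be on the MDA231 list. An unprinted gene that is annotated to a listed term was off that list. The annotations of unprinted genes were not available here, so these cases were not told apart, and an unprinted subunit is not shown to be unchanged.

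Among these lists, the mitotic kinases and their activators had the largest named share, which is not read as a result. Of these 18 genes, 11 were named (61.1%) and 7 were members. The cyclin-dependent kinases had a named share of 33.3%, beside 30.7% of all list genes. PLK1 was in 13 listed terms, among them sister chromatid cohesion, mitotic nuclear envelope disassembly and G2/M transition of mitotic cell cycle. NEK2, a centrosome-separating kinase, was in 8 terms, and NEK9, which acts upstream of other NEK kinases, in 5. LATS1, a Hippo pathway kinase, was in 6. WEE1 and PKMYT1, which hold CDK1 inactive by phosphorylation, were in 4 and 6 terms, and CDC25B, the phosphatase that removes those phosphates, was in 5. Both sides of that switch were therefore on the list, and no direction is known for either. BORA was in 3. PLK2 and PLK4 were named in other terms, and MASTL and NEK4 were removed with the DNA damage genes. AURKA, PLK3 and NEK6 were among those not printed.

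Of 21 cyclin-dependent kinases, 7 were named and 5 were members: CDK5 in 15 terms, CDK4, the G1 kinase, and CDK11B in 5 each, CDK20 in 4 and CDK10 in 2. CDK11B has a near-identical neighbour, CDK11A, which was not printed, and the counting of reads shared by such copies is not known here. The same limit holds for the members SPIN2B, ATAD3B and TUBA1B, which also have close copies. Of 25 cyclins, 9 were named and 6 were members. CCNT1 and CCNT2, partners of the transcription kinase CDK9, were in 11 and 9 terms. CCNE2, a G1/S cyclin, was in 5, CCNF, an F-box protein of ubiquitin ligases, in 4, and CCND3, a G1 cyclin, and CCNG2 in 3 each. CDK1 and the mitotic cyclins CCNA2, CCNB1 and CCNB2 were not printed in any listed term. Of 8 CDK inhibitors, 4 were named and 0 were members. Of 21 genes of the CDC25, CDC14, PP1 and PP2A phosphatases and their regulators, 5 were named and 2 were members, CDC25B and PPP2R2D.

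Of 63 distinct kinetochore genes on the lists, 23 were named (36.5%) and 15 were members. In the outer, microtubule-binding layer, of 13 genes of the KMN network and the Ska complex, 7 were named (53.8%), and all 7 were members: MIS12, DSN1 and NSL1 of the MIS12 complex, SPC24 and SPC25 of the NDC80 complex, the scaffold KNL1, and SKA3. Their partners PMF1, NDC80, NUF2, ZWINT, SKA1 and SKA2 were not printed. MIS12 was in 5 terms, SPC25 in 4 and the other 5 genes in 3 each. Of 21 genes of CENP-A chromatin and the inner kinetochore, 6 were named and 2, CENPT in 6 terms and CENPW in 5, were members. CENPT and CENPW bind each other in a histone-fold complex, which CENPS and CENPX join, and CENPS and CENPX were named by the division terms too but removed with the DNA repair genes. All 4 subunits of that histone-fold complex were thus on the MDA231 list. CENPL and CENPO were named for sister chromatid cohesion only.

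Further kinetochore and chromosome lists varied in their counts. Of the chromosomal passenger complex and shugoshins, 1 of 8 was named, SGO1, the protector of centromeric cohesion, in 5 terms, while AURKB, INCENP, BIRC5 and CDCA8 were not printed. Of 11 corona and plus-end proteins, 5 were named and 4 were members. CLASP1 and CLASP2, which stabilise microtubule plus ends, were in 9 terms each and shared 8, NDE1, a dynein regulator, was in 6, and the plus-end protein CLIP1 was in 2. NUP43 belongs to the pore subcomplex that also sits on kinetochores, of which 4 of 10 genes were named. It was in 10 terms, and the pore proteins NUP62 and NUP88 were members in 10 and 7. Condensin gave NCAPD2 and NCAPH, 2 of 8 subunits, in 2 terms and 1. Cohesin gave no member, since PDS5B was removed for DNA repair and NIPBL and HDAC8 were in none of the 3 terms.

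Of 48 distinct checkpoint and mitotic exit genes on the lists, 11 were named (22.9%) and 8 were members. Of 12 genes of the spindle assembly checkpoint and its RZZ partners, 3 were named and 2 were members. KNTC1 and ZWILCH, the Rod and Zwilch subunits of the RZZ complex that brings checkpoint proteins to kinetochores, were in 4 and 3 terms. The checkpoint kinase TTK was named in 4 other terms, and MAD2L1, BUB1, BUB1B and BUB3 were not printed. Of 19 genes of the APC/C and its regulators, 4 were named: ANAPC1, CDC16 and CDC26 in 3 terms each and CDC27 in 2, while the activators CDC20 and FZR1 were not printed. Of the SCF and CUL3 ligases of mitosis, 4 of 17 were named. KLHL9 and KLHL22, adaptors of CUL3, were members in 2 terms each. CHFR, the ubiquitin ligase of an early mitotic stress checkpoint, was a member in 7 terms but was not on these lists.

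**Figure D3:**
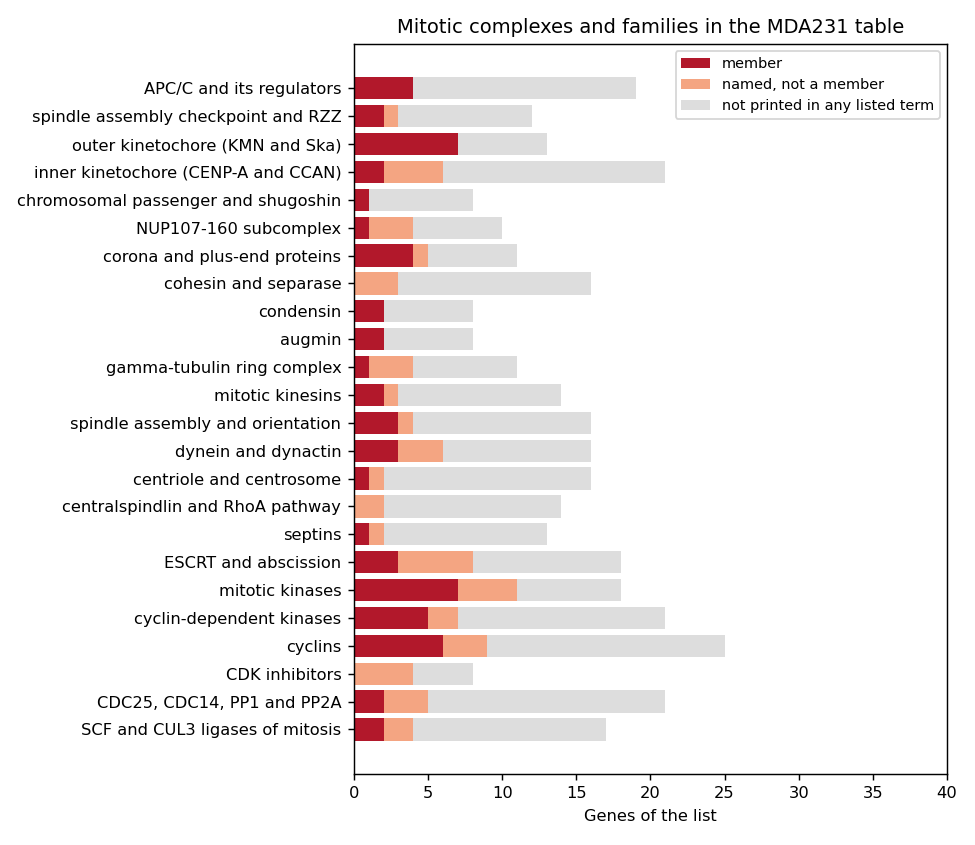
Genes of each complex or family list (horizontal axis) that were members, named in the MDA231 table without being members, or not printed in any listed term. The outer kinetochore has 7 members of 13 genes and the mitotic kinases 7 of 18, while cohesin, the centralspindlin list and the CDK inhibitors have no member.

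Of 81 distinct spindle genes on the lists, 21 were named (25.9%) and 12 were members. The augmin complex, which branches microtubules inside the spindle, gave HAUS3 and HAUS8 of 8 subunits. NEDD1, which brings the gamma-tubulin ring complex to the spindle, was the single member of that list, while TUBGCP2, TUBGCP3 and TUBGCP5 were named for microtubule nucleation and centrosome duplication. The microtubule-depolymerising kinesins KIF2A and KIF2C were members in 4 and 5 terms, and the motors KIF11, KIF18A and KIF4A were not printed. CKAP5 was in 6 terms, NUMA1, a spindle pole organiser, in 2 and SPAG5, or astrin, in 2. Dynein and dynactin gave DYNC1LI1, DYNLT3 and DCTN3, and the centrosome list gave CEP63. TNKS, the poly-ADP-ribosyltransferase tankyrase, was in 9 terms, NUDC, a dynein-linked chaperone, in 5, and the microtubule-severing KATNA1 in 2.

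Of 45 distinct cytokinesis genes on the lists, 12 were named (26.7%) and 4 were members. Of 18 ESCRT and abscission genes, 8 were named and 3 were members: VPS4A, the ATPase that disassembles ESCRT filaments, in 8 terms, CHMP1A in 7 and IST1 in 5. A further 5, CHMP2A, CHMP4A, CHMP4C, CHMP7 and SPAST, were named outside the 3 terms. The terms of VPS4A and CHMP1A also covered multivesicular body assembly, protein transport and viral budding. SEPTIN9 was a member in 4 terms, and SEPTIN6 was named only for viral process. Of 14 genes of centralspindlin and the RhoA pathway, RHOB and MYH10 were named and 0 were members. RACGAP1, ECT2, ANLN and CIT were not printed. EVI5 and PKN2, a RhoA effector kinase, were in 7 terms each, and ANXA11, CCDC124 and SPECC1L were in cell division and cell cycle only.

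Members outside the lists numbered 93, and 60 of these were placed in functional groups after their names were seen. Ubiquitin ligases, deubiquitinases and other genes of the ubiquitin pathway were 12. CYLD, a K63-chain deubiquitinase, was in 9 terms, and CUL4B and TRIM21 were in 8 each. USP9X, BABAM1, CDC34 and SIAH2 were in 6 and SIAH1 in 5. A group of kinases and CDK partners, with the tubulin and histone deacetylase SIRT2 placed among them, held 9. The ribosomal S6 kinases RPS6KA1 and RPS6KA3, MAP3K8, PIM3, MAPK13 and the adaptor pair CABLES1 and CABLES2 were in 3 or 4 terms. SIRT2 was in 10. LIN9, LIN52 and LIN54 of the MuvB core stood with RBL2, the pocket protein p130 that joins MuvB in the DREAM repressor of cell cycle genes. These 4 had the same 3 terms, cell cycle, regulation of cell cycle and transcription, DNA-templated. Centromere and chromosome genes were 10, among them the telomere protein TERF2, the SUMO ligase NSMCE2 and the histone methyltransferase SETDB2, in 4, 5 and 4 terms. The 33 members in no list or group included the splicing factors CDC40 and USP39, WTAP, of the RNA methyltransferase complex, and GMNN.

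The number of listed terms per member includes the terms that chose it. The median member was in 3 listed terms (range 1 to 15), against a median of 2 (range 1 to 23) for the 2492 other genes named in the MDA231 table. Of the members, 13 were in a single term (8.44%), against 1034 of the other genes (41.5%). In 5 or more terms were 46 members (29.9%), against 315 others (12.6%). Without the 3 terms the members had a median of 2 terms (lowest 0), and 24 members (15.6%) were in 5 or more. The 2312 other genes outside the DNA terms had a median of 2 (lowest 1), and 231 (9.99%) were in 5 or more. Those other genes had to be in at least 1 term, which the members here did not. This is a description of annotation, and no test was made. Apart from the 3 terms, 126 members were in at least 1 other listed term and 28 in none, and the members reached 121 other terms. The 11 members in mitotic nuclear division alone had a median of 4 terms, and each was in another listed term.

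**Figure D4:**
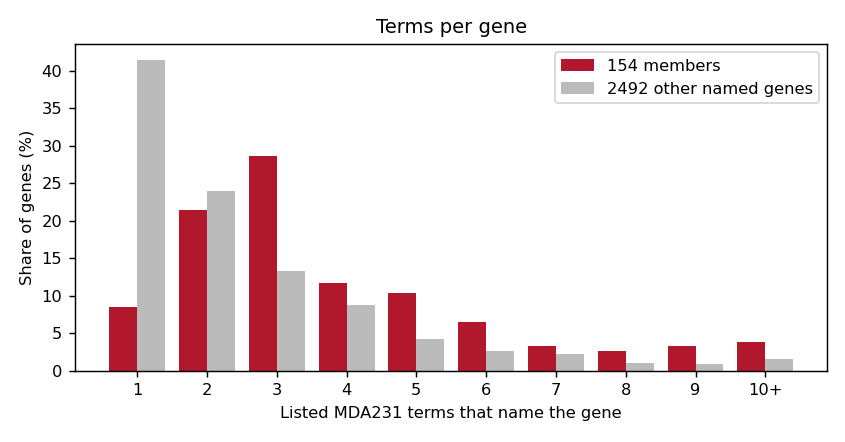
Share of genes (vertical axis, percent) by the number of listed MDA231 terms that name them, the 3 choosing terms included, for the 154 members and the 2492 other named genes. The members peak at 3 terms with 28.6%, and the other genes at 1 term with 41.5%.

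Several members had nearly the same set of terms. CCNT1 and CCNT2 shared 9 terms, and NUP43, NUP62 and NUP88 shared 7 in each pair. CENPT shared 5 terms with each of CENPW and MIS12, SIAH1 shared 5 with SIAH2, and KIF2A shared 4 with KIF2C. Identical sets were held by 4 kinetochore and RZZ genes, KNL1, NSL1, SPC24 and ZWILCH, and by 5 centrosome and spindle genes, BORA, CEP63, HAUS3, HAUS8 and NEDD1. The genes most like PLK1 were LATS1 and PKMYT1, with 4 shared terms each and a Jaccard index of 0.267 over all listed terms. For CDK5 the nearest was GMNN, with 3 shared terms and a Jaccard index of 0.188. CDK5 was the only member in negative regulation of neuron death, and it shared neuron projection development with 1 other member, CUL4B.

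Outside the cell cycle, the highest counts of members were in large terms. Members were 5.82% of all genes named in the MDA231 table. Transcription, DNA-templated held 20 members among its 448 identifiers (4.46%), below that share. Protein phosphorylation held 18 among 134 (13.4%), including PLK1, NEK2, NEK9, LATS1, PKMYT1, CDK4 and CDC25B. The apoptotic process held 11 members among 141 (7.80%), including SIAH1, SIAH2 and STEAP3. Of the 12 listed terms past an adjusted p of 0.05 that did not choose the members, 3 had their genes removed by the rule and 7 held a member, 35 members in all. Protein transport held 8 of these members among 136 genes (5.88%). Cell-cell adhesion held 5 among 86 (5.81%), which were CKAP5, IST1, NUDC, PKN2 and SEPTIN9. Autophagy held 3 among 54 (5.56%), RB1CC1, SIRT2 and VPS4A. Intracellular protein transport held 3 among 87 (3.45%), CDK5, EVI5 and RABGAP1. The snRNA transcription term held CCNT1 and CCNT2 among 35 (5.71%), and ER to Golgi vesicle-mediated transport held DCTN3 among 61 (1.64%). Apart from protein phosphorylation, the shares in these adjusted terms were close to or below the 5.82% of all named genes.

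Of the 31 genes removed for the DNA terms, 11 were in DNA replication, and the others were in DNA repair or the DNA damage response without it. The 31 included CDC6 and CDC7, which start replication, the damage kinases ATR and CHEK2, RAD17, the fork proteins TIMELESS and TIPIN, the chromatin assembly subunits CHAF1A and CHAF1B, CDK2, and MNAT1 of the CDK-activating kinase. TAF1, a TFIID subunit, was in the most terms of these, 18. Of the 31, KIF22, MASTL, CENPS and CENPX act in mitosis by their known roles. NEK4 was annotated to cell division and mitotic nuclear division. Genes in other listed DNA terms stayed members. BABAM1, NSMCE2 and RIF1 were in double-strand break repair via nonhomologous end joining. CUL4B and GPS1 were in transcription-coupled nucleotide-excision repair, and CCNE2 and CDC34 in DNA replication initiation.

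Members were on every human chromosome except 21 and Y by GENCODE release 29 (GRCh38), the human build in the submitters' processing notes, and none was mitochondrial. Chromosome 16 carried the most, 17 (11.0%), against 158 of all genes named in the MDA231 table (5.97%) and 4.29% of protein-coding genes. They were PLK1, CYLD, VPS4A, CHMP1A, CENPT, NDE1, PKMYT1, IST1, SIAH1, CCNF, BANP, RBL2, CDK10, TENT4B, BCAR1, TERF2 and TXNL4B. PLK1 (ENSG00000166851) spans 23677656 to 23690367 on the plus strand of chromosome 16. CDK5 (ENSG00000164885) spans 151053812 to 151058530 on the minus strand of chromosome 7. Chromosome 12 carried 12 members (7.79%), against 4.35% of named genes, and chromosome 1 carried 13 (8.44%), against 10.9%. Chromosomes 16, 12 and 1 were picked after their counts were seen, and no test was made.

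Some members were close neighbours, taken as less than 200000 bases apart. Close pairs among other genes were not counted, so these pairs are a description only. LATS1 lay between NUP43, 6059 bases away, and KATNA1, 9181 bases away, on chromosome 6. On chromosome 16, CHMP1A and CDK10 were 22892 bases apart, VPS4A and TERF2 28622, and IST1 and TXNL4B 113090. CHFR and ANKLE2, a nuclear envelope reassembly factor, were 60299 bases apart on chromosome 12, and NUP88 and MIS12 66125 on chromosome 17. Exons of a member covered a median of 5522 bases, against 5360 for other named protein-coding genes and 4224 for all protein-coding genes.

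**Figure D5:**
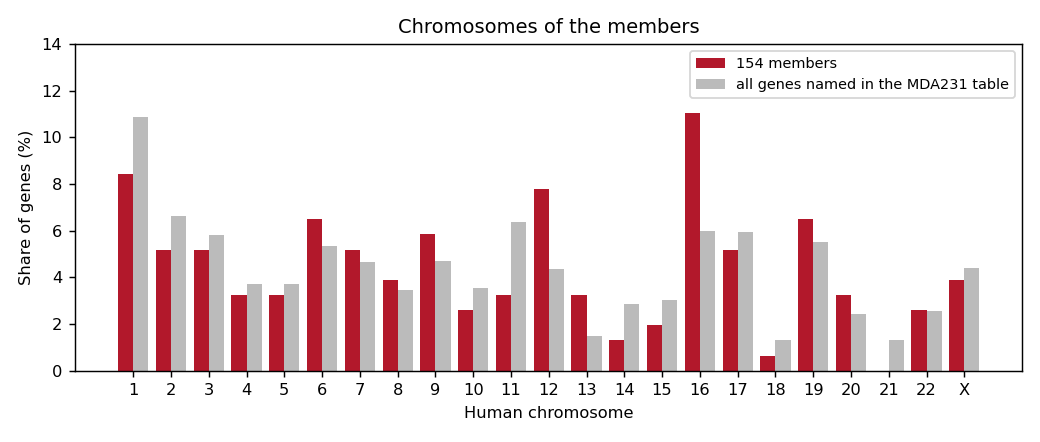
Share of the 154 members on each human chromosome (vertical axis, percent), beside the share of all genes named in the MDA231 table, members included. Chromosome 16 holds 11.0% of members and 5.97% of all named genes.

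In the HCC1954 table, 0 of the 154 members were named, where 30 of 16792 background genes (0.179%) were named at all. At that share, a count of 0 among 154 genes is not a result about them. None of the 352 complex list genes was named there, and neither were the 3 terms that chose the members. The only HCC1954 term on the cell cycle was positive regulation of cell cycle arrest. With 66 listed HCC1954 genes against 3626 for MDA231, a difference between the lines in these genes was not tested and cannot be told apart from the size of the lists.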

How the data were processed

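The libraries were made with the SMARTer kit after oligo(dT) selection and, for IP, immunoprecipitation with an anti-BrdU antibody (2.5 µg a brain), per the labels' protocols. STAR and HTSeq were used with GRCh38 and GRCm38, per the submitters' processing notes, with versions not given in the sources used here. Per the file headers, the authors deposited for each term the count of listed genes, the percent of submitted genes, p-values (unadjusted, Bonferroni, Benjamini), a fold enrichment (ratio of listed to background share) and a false discovery rate in percent. No source used here says how the listed genes were chosen.

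Identifiers were read from the tables and matched to symbols (all 154 members) and to GENCODE release 29. A term counted as naming a gene once. In transcription, DNA-templated the deposited count is 447 for 448 identifiers. Folds and p-values are the authors', and exact (Clopper-Pearson) 95% binomial intervals of the listed genes were divided by the background share. The member rule and the interval were tested on simulated data. Named genes were PLK1, CDK5, the members in most terms and up to 8 members per list and 12 outside the lists by number of terms; genes beyond these were added after their values were seen. The members and lists were chosen with earlier results of these data known. IP was not tested against input, which needs values per library. Python 3.11.15, pandas 2.3.3, NumPy 2.4.6, SciPy 1.17.1 and Matplotlib 3.10.9 were used.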

Additional observations from a re-analysis of the deposited data

How the results depend on the processing

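The set of members depended on the terms taken. From the 154 reported, the number was 185 with the DNA damage, repair and replication genes kept, 99 with cell division alone, 67 with mitotic nuclear division alone, 62 with cell cycle alone, 74 with genes in at least 2 of the 3 terms, and 253 with the other cell cycle terms added by name. The 3 terms all had a Benjamini p under 0.05 and a deposited false discovery rate under 5%, while 2 of the 3 passed a Benjamini p of 0.01 and 2 a Bonferroni p of 0.05, mitotic nuclear division being the one that did not. Of the complex list genes, 108 were named, 101 in at least 2 terms and 61 as members. Of the 126 members in other listed terms, 112 were in one with an unadjusted p under 0.05 and 35 in one with a Benjamini p under 0.05. These shifts follow from fewer or more terms being read. The count of 0 members in the HCC1954 table was the same by symbol. No paired analysis was possible because the tables hold no value per library, and for the same reason no library was left out in turn. Depth is unknown here.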
